A study of Mus musculus with 6 samples.

Results

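The transcripts of 10 testis ADAM genes (Adam1a, Adam1b, Adam2, Adam3, Adam5, Adam6a, Adam6b, Adam18, Adam24 and Adam32) were followed through mouse sperm development, and between mice breathing cigarette smoke and control mice. The 10 genes were taken by symbol from the 30905 genes of the count matrices, and all 10 were found there, each once. Testis cells of ICR mice, an outbred stock, were sequenced as single cells in droplets, in 3 control and 3 smoking libraries. The smoking group was exposed for 12 weeks, 30 minutes per day, to 15 cigarettes (tar 11 mg, nicotine 1.1 mg in each), and the control group sat in the same kind of chamber without smoke. Mice were bought at 6 weeks and adapted for 1 week, which does not match the age label of 8 weeks. The labels give 7 mice per group but do not tie a library to a mouse, so the p-values below measure the spread between libraries, which may be technical.

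ADAM proteins (a disintegrin and metalloprotease) are membrane proteins made of a prodomain, a metalloprotease domain, a disintegrin domain, a cysteine-rich domain and a tail. A large branch of the family is found on germ cells, and several of its members have lost the residues that bind the catalytic zinc. ADAM2 is the beta subunit of fertilin: with ADAM1B it forms the fertilin of the sperm surface, whereas with ADAM1A it forms a complex that stays in the endoplasmic reticulum. ADAM3, also called cyritestin, is needed for sperm to enter the oviduct and bind the zona pellucida, and it reaches the sperm surface only when a set of testis chaperones and partner ADAM proteins is present. ADAM6 joins ADAM2 and ADAM3 in complexes, and ADAM24, also called testase 1, is a sperm surface protease.

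The catalytic stretch separates the members, and it is shown here because Adam1a and Adam1b, which share it, behaved differently below. Each line gives 33 coding bases, 5′ to 3′ on the coding strand, from GENCODE M21 transcripts on GRCm38, each inside 1 exon. Capitals mark histidine codons at the 3 zinc-binding positions of the metalloprotease motif. Genes without the motif were aligned to Adam1a.
Adam1a (chr5:121520089-121520121, minus strand): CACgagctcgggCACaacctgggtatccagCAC
Adam1b (chr5:121501937-121501969, minus strand): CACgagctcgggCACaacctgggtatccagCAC
Adam24 (chr8:40680518-40680550, plus strand): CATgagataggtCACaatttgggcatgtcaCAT
Adam2 (chr14:66053841-66053873, minus strand): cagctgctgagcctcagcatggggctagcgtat
Adam6a (chr12:113545050-113545082, plus strand): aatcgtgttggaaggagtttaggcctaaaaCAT
Adam6b (chr12:113490606-113490638, plus strand): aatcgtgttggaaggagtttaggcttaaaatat
The full motif was present in 3 of the 10 genes, Adam1a, Adam1b and Adam24, and absent from the other 7.

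Adam1a and Adam1b were identical over this stretch, but 72.6% identical as proteins and 86.5% identical in coding sequence. Their transcripts shared a run of 1082 identical bases. Their last 500 bases, where a 3′ library places most reads, shared no run longer than 13 bases and were 68.6% identical where aligned, so reads from these ends can be told apart. Adam6a and Adam6b were 89.8% identical as proteins, and their last 500 bases were 92.7% identical with a shared run of 89 bases. The split of UMIs (unique molecular identifiers, 1 per captured RNA molecule) between Adam6a and Adam6b is therefore uncertain. The 10 proteins run from 719 to 822 residues.

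The genes also fall into 2 kinds by structure. Adam1a, Adam1b, Adam6a, Adam6b and Adam24 have 1 coding exon. The other 5 have 19 to 22 coding exons. Adam18, Adam3, Adam5 and Adam32 lie next to one another on the minus strand of chromosome 8, from 24602246 (Adam18) to 24948804 (Adam32) on GRCm38. Adam1a and Adam1b are neighbours on chromosome 5, and Adam6a and Adam6b lie in the immunoglobulin heavy chain region of chromosome 12.

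Of 54253 deposited barcodes, 47960 were retained, and the libraries held 39607204 to 78455606 deposited UMIs. A barcode sequence occurred in 2 or more libraries 365 times. Classes were rebuilt from clusters with fixed markers and are called X-like, and the members were kept out of the clustering. In all, 5 germ cell groups had enough barcodes in every library: spermatogonia-like (94 to 159 barcodes per library), spermatocyte-like (552 to 705), round spermatid-like (1024 to 1370), elongating spermatid-like (148 to 1151) and an unnamed cluster led by Hemgn (54 to 86). In the Hemgn cluster the summed level of 14 round spermatid markers was 3572 CPM (UMIs of a gene per 1000000 UMIs), between 7466 in round spermatid-like and 548 in elongating spermatid-like barcodes, and the 15 elongating spermatid markers were likewise intermediate. It is placed between these classes below on those values. Control 3 stood apart from the other controls: 16.9% of its retained barcodes held at least 6000 UMIs, against 8.93% and 7.93% in controls 1 and 2 and 16.1% to 23.1% in the smoking libraries. Elongating spermatid-like barcodes made up 6.96% of control 3, 2.14% and 1.85% of controls 1 and 2, and 6.94% to 13.3% of the smoking libraries. The share of barcodes without a class was 58.9% ± 5.25 in the control and 52.4% ± 1.75 in the smoking group (SD, n = 3).

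Levels are CPM of a class in a library, given as mean ± SD over the 6 libraries. They are shares of a class's RNA and compare 1 gene between classes, not 1 gene with another. They carry no test, because the classes are made from the same cells' RNA. RNA free in the suspension can give a barcode some germ cell UMIs. Each level was therefore set beside that of Leydig cell-like barcodes, taken as background, and the source of the UMIs in those was not tested. For this, barcodes with at least 6000 UMIs were used, where the Leydig cell-like levels were lower.

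The 10 genes split into an earlier and a later set by the class in which they first exceeded that background. Adam2, Adam1b, Adam5, Adam18, Adam32 and Adam3 were above the upper 95% counting limit of the Leydig cell-like level in spermatocyte-like barcodes of every library. With at least 6000 UMIs, 5 of these 6 also exceeded the level of each of 6 somatic classes in every library. Adam3 did not: it had 114 CPM in control 1 and 186 CPM on average, against 161 CPM in macrophage-like, 175 CPM in mesenchymal-like and 254 CPM in Sertoli cell-like barcodes, so its place in the earlier set rests on the choice of Leydig cell-like barcodes. Adam24, Adam6a, Adam6b and Adam1a were not above the Leydig cell-like limit there, and first exceeded it in round spermatid-like barcodes. All 5 members with many coding exons belonged to the first set. Of the 5 members with 1 coding exon, 4 belonged to the second set, and Adam1b was the exception.

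**Figure D1:**
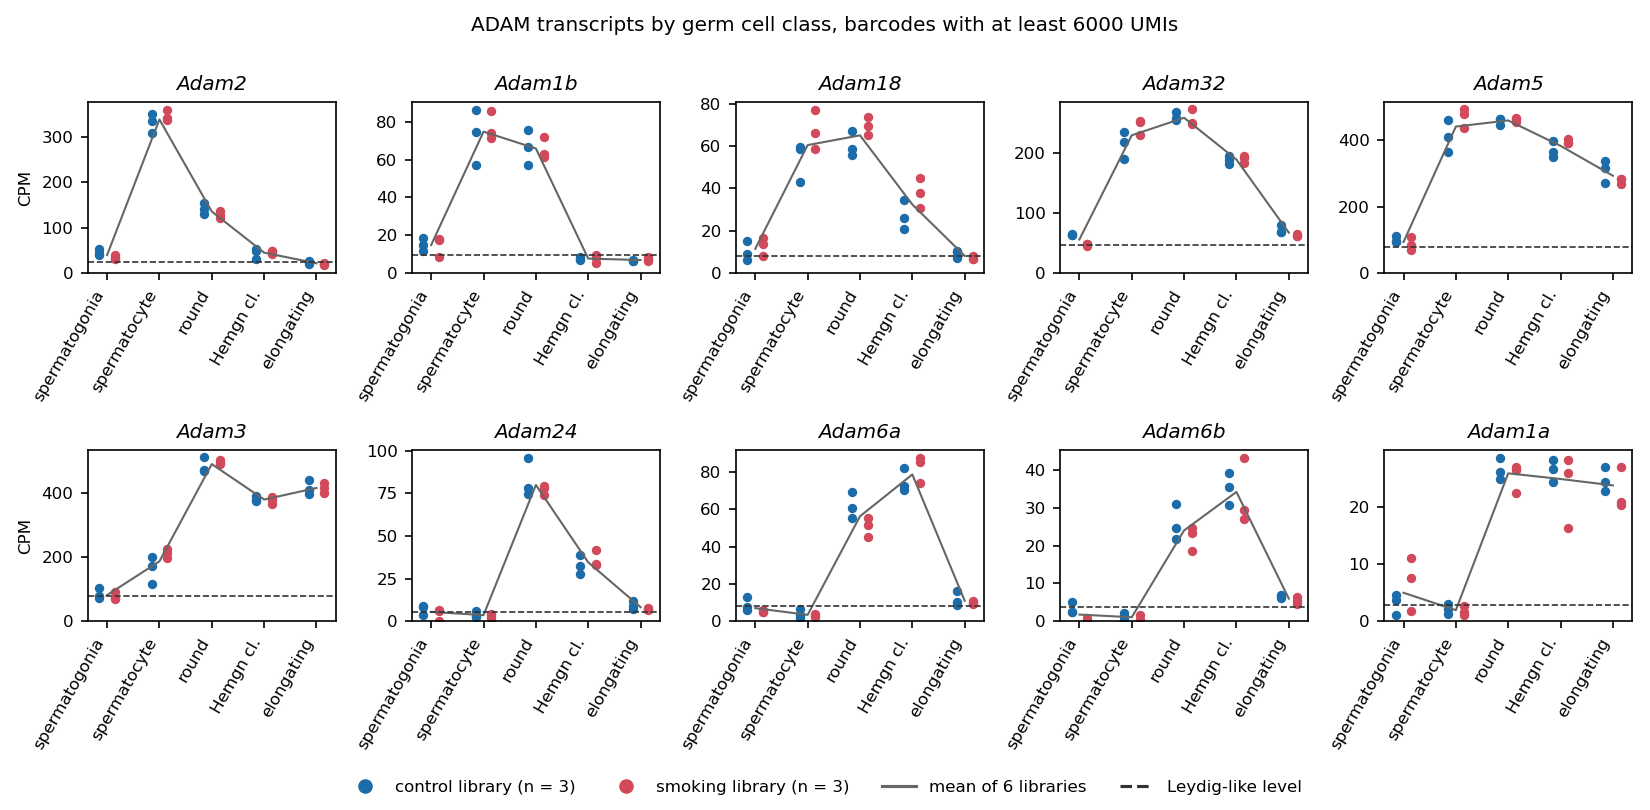
Level of each gene (CPM, linear axes from 0) in 5 germ cell classes, in barcodes with at least 6000 UMIs. Points are libraries, blue for control and red for smoking, the grey line joins the means of 6 libraries, and the dashed line is the level in Leydig cell-like barcodes. Adam2, Adam1b, Adam18, Adam32 and Adam5 climb at the spermatocyte-like class. Adam24, Adam6a, Adam6b and Adam1a lie near the dashed line there and climb only at the round spermatid-like class.

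By class level, Adam2, the fertilin beta gene, was highest in spermatocyte-like barcodes in all 6 libraries. Its level there was 281.6, 285.4 and 325.1 CPM in controls 1 to 3 and 327.8, 307.1 and 325.8 CPM in smoking libraries 1 to 3. It was 185 ± 25.3 CPM in round spermatid-like barcodes, 45.4 ± 7.79 CPM in the Hemgn cluster and 21.5 ± 3.51 CPM in elongating spermatid-like barcodes. The elongating level was 6.96% of the highest class level and did not exceed the Leydig cell-like level of 24.95 CPM. Each step after the spermatocyte-like class was downward in 6 of 6 libraries, with a mean log2 difference of -0.73 to round spermatid-like, -1.92 from there to the Hemgn cluster and -0.92 to elongating spermatid-like barcodes. The difference between spermatocyte-like and round spermatid-like barcodes was larger in barcodes with at least 6000 UMIs, at 338 ± 17.4 against 135 ± 10.9 CPM. Single clusters gave another order. Adam2 was highest in round spermatid-like cluster 4, and the highest spermatocyte-like cluster had 89.7% of that level. Round spermatid-like cluster 18, of far greater depth, had 26.5%.

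Adam1b, the partner of ADAM2 at the sperm surface, had a similar course. It was 84.6 ± 7.89 CPM in spermatocyte-like and 78.2 ± 6.15 CPM in round spermatid-like barcodes, and the spread over libraries of these neighbours overlapped. It was 7.94 ± 1.66 CPM in the Hemgn cluster, a drop by 2.69 on the log2 scale present in 6 of 6 libraries, and no longer exceeded the Leydig cell-like level of 9.36 CPM. Adam2 in the Hemgn cluster, at 45.4 CPM, lay between 24.95 CPM in Leydig cell-like and 47.5 CPM in macrophage-like barcodes and was not read as expression there. Over the 27 clusters with at least 20 barcodes in every library, the log2 levels of Adam1b and Adam2 had r = 0.95. The clusters share their libraries and differ in depth, and this r is a description.

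Adam1a, whose product pairs with ADAM2 inside the cell, followed a different course from its neighbour Adam1b. In spermatocyte-like barcodes it had 5.97, 6.22 and 5.28 CPM in controls and 2.61, 3.77 and 2.37 CPM in smoking libraries, and with at least 6000 UMIs it had 1.91 ± 0.753 CPM, against 2.77 CPM in Leydig cell-like barcodes. In round spermatid-like barcodes it was at 24.6, 23.2 and 27.4 CPM in controls and 27.1, 24.96 and 21.7 CPM in smoking libraries. No value of the first class came near those of the second. Adam1a then stayed at 24.8 ± 4.34 CPM in the Hemgn cluster and 23.9 ± 3.11 CPM in elongating spermatid-like barcodes, and these 3 late levels did not differ beyond their spread. Its r over clusters was -0.18 with Adam1b and -0.23 with Adam2. Adam1b was therefore high where Adam1a was at background, both were present in round spermatid-like barcodes, and Adam1a alone of the pair remained in elongating ones.

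**Figure D2:**
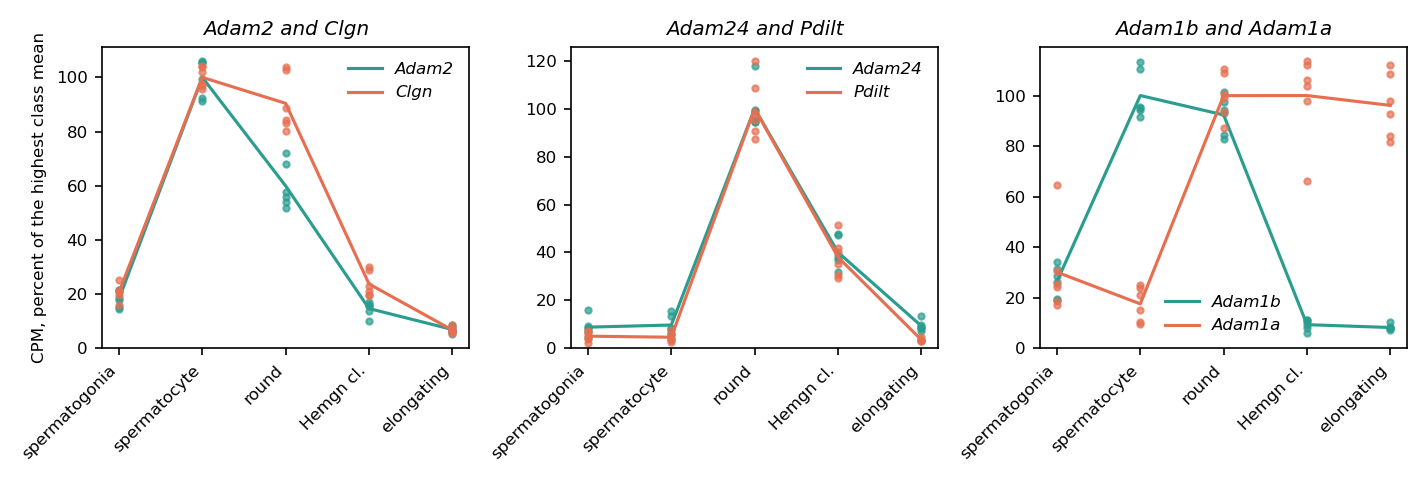
Levels of 3 gene pairs in 5 germ cell classes, as percent of each gene's highest class mean; points are the 6 libraries and lines join their means, over all retained barcodes. Adam2 and Clgn, and Adam24 and Pdilt, have like courses, while Adam1b falls to 8.26% of its peak in elongating spermatid-like barcodes and Adam1a keeps 96.1%.

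Adam3, the gene of cyritestin, had a broad and late course. It rose by 0.99 on the log2 scale from spermatogonia-like to spermatocyte-like barcodes and by 0.85 from there to round spermatid-like barcodes, each in 6 of 6 libraries. Its round spermatid-like level was 388.0, 383.7 and 451.0 CPM in controls and 450.2, 443.9 and 459.9 CPM in smoking libraries, with control 3 beside the smoking libraries. It was 379 ± 10.5 CPM in the Hemgn cluster and 415 ± 17.1 CPM in elongating spermatid-like barcodes, 96.7% of the peak. Among the 10 genes, only Adam3 and Adam1a kept over 90% of their peak in elongating spermatid-like barcodes. With at least 6000 UMIs, Adam1a kept 91.9% and Adam3 84.8%.

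Adam5 and Adam32, which encode catalytically inactive ADAM proteins and neighbour Adam3 on chromosome 8, were present in the spermatocyte-like and round spermatid-like classes. Adam5 was 456 ± 27.3 CPM in spermatocyte-like, 425 ± 18.97 CPM in round spermatid-like, 386 ± 19.95 CPM in Hemgn cluster and 294 ± 27.9 CPM in elongating spermatid-like barcodes. Each of these steps was downward in 6 of 6 libraries over all retained barcodes. With at least 6000 UMIs the first one was up in 4 of 6, so its direction depends on depth. Adam32 was level between spermatocyte-like and round spermatid-like barcodes, at 250 ± 12.7 and 250 ± 11.2 CPM, and fell to 27.2% of its peak in elongating spermatid-like barcodes, at 68.0 ± 6.96 CPM. With at least 6000 UMIs it was 67.6 ± 6.65 CPM there. This lay between 47.5 CPM in Leydig cell-like and 75.8 CPM in macrophage-like barcodes, with 105 CPM in Sertoli cell-like ones, and was not read as expression.

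Adam18, the fourth gene of that chromosome 8 row, was 69.6 ± 7.83 CPM in spermatocyte-like and 85.8 ± 3.66 CPM in round spermatid-like barcodes. The rise was present in 6 of 6 libraries over all barcodes and in 3 of 6 with at least 6000 UMIs. It was 32.99 ± 8.15 CPM in the Hemgn cluster and 8.09 ± 1.71 CPM in elongating spermatid-like barcodes, which is at the Leydig cell-like level of 7.97 CPM. The elongating spermatid-like levels of the 4 neighbouring genes were 9.42% (Adam18), 27.2% (Adam32), 64.5% (Adam5) and 96.7% (Adam3) of their peaks. Those of Adam18 and Adam32 lay within the somatic range. That of Adam5 lay below the 334 CPM of Sertoli cell-like barcodes over all retained barcodes. With at least 6000 UMIs it was 293 CPM (lowest library 269 CPM), against 260 CPM in Sertoli cell-like ones, so whether it exceeded background depended on depth.

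Adam24, the testase 1 gene, was the most sharply confined to 1 class of the later set. Its round spermatid-like level was 86.8, 102.7 and 82.3 CPM in controls and 86.4, 82.5 and 83.0 CPM in smoking libraries. In spermatocyte-like barcodes it was 8.50 ± 3.42 CPM, and 3.51 ± 1.35 CPM with at least 6000 UMIs, against 5.20 CPM in Leydig cell-like barcodes. It was 35.0 ± 5.43 CPM in the Hemgn cluster and 8.16 ± 1.84 CPM in elongating spermatid-like barcodes. The latter lay below the 12.0 CPM of Sertoli cell-like barcodes with at least 6000 UMIs.

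By class level, Adam6a and Adam6b, the 2 copies of the Adam6 gene, peaked later than Adam24. Adam6a was 8.01 ± 3.68 CPM in spermatocyte-like, 68.2 ± 10.9 CPM in round spermatid-like, 79.9 ± 7.55 CPM in Hemgn cluster and 10.9 ± 2.61 CPM in elongating spermatid-like barcodes. Adam6b was 3.16, 29.3, 34.7 and 5.95 CPM in the same order. The elongating spermatid-like levels of Adam6a and Adam6b lay below those of Sertoli cell-like barcodes with at least 6000 UMIs (20.3 and 10.5 CPM). The Hemgn cluster was the highest class in 4 of 6 libraries for Adam6a and 5 of 6 for Adam6b, and in all 6 for both with at least 6000 UMIs. The heat map of single clusters leaves out an unnamed cluster led by Prss58 that has Adam6b among its 10 leading genes. Among the clusters shown there was no later peak: Adam24, Adam6a and Adam6b were all highest in round spermatid-like cluster 10. The Hemgn cluster had 46.0% of that level for Adam6a, 44.2% for Adam6b and 27.4% for Adam24. Median depth was 3817 UMIs in cluster 10 and 30740 UMIs in the Hemgn cluster. The fall from the Hemgn cluster to elongating spermatid-like barcodes was -2.43 ± 0.29 for Adam6a and -1.84 ± 0.19 for Adam6b on the log2 scale, in 6 of 6 libraries each. The likeness of the Adam6a and Adam6b courses (r = 0.97 over 27 clusters) cannot be told apart from reads assigned to the wrong copy.

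Across all members, 28 of the 40 steps between neighbouring classes had 1 sign in all 6 libraries. Levels in spermatogonia-like barcodes were not read as expression: for Adam2 the level with at least 6000 UMIs was 39.5 ± 7.69 CPM, between 24.95 CPM in Leydig cell-like and 47.5 CPM in macrophage-like barcodes, and for Adam3 it was 81.1 ± 13.7 CPM, between 77.6 and 161 CPM. Sertoli cell-like barcodes had more of some members, with 254 CPM of Adam3 and 260 CPM of Adam5 beside 40.9 CPM of Adam2. The source of that RNA was not tested.

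Barcodes with a UMI of each gene were counted as well. Each germ cell barcode with at least 6000 UMIs was thinned to 6000 UMIs, which left out shallower barcodes (3097 of 3708 control and 2482 of 3505 smoking round spermatid-like barcodes, 1567 of 1895 and 1487 of 1867 spermatocyte-like ones). Adam2 had a UMI in 71.3% of thinned spermatocyte-like barcodes, 56.3% of round spermatid-like, 13.3% of elongating spermatid-like and 16.9% of Leydig cell-like ones. The shares per library in these 2 classes also lay apart for Adam1b, Adam5, Adam18 and Adam32. For Adam3 they overlapped, with 57.4% (lowest library 46.7%) in spermatocyte-like and 35.1% (highest library 48%) in Leydig cell-like barcodes. Adam24 had a UMI in 2.95% of spermatocyte-like, 39.2% of round spermatid-like and 2.06% of Leydig cell-like barcodes. For Adam1a these shares were 1.20%, 16.4% and 2.20%, with 14.1% in elongating spermatid-like barcodes. Before thinning, median depths were 18610 UMIs in spermatocyte-like, 18600 in round spermatid-like and 16220 in Leydig cell-like barcodes, and the Adam24 shares were 10.5%, 74.4% and 8.52%. A thinned round spermatid-like barcode held UMIs of 4.85 ± 0.0373 of the 10 genes on average, against 3.38 ± 0.167 in spermatocyte-like and 1.42 ± 0.561 in Leydig cell-like barcodes (mean of library means ± SD, n = 6).

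**Figure D3:**
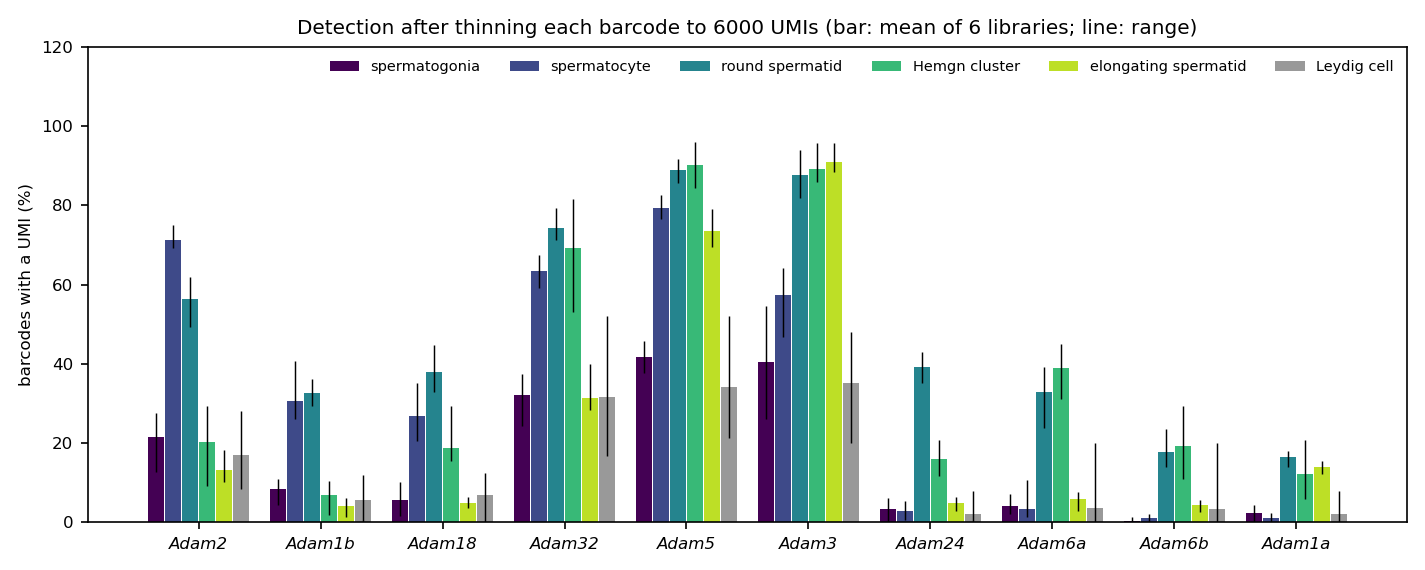
Share of barcodes with at least 1 UMI of each gene after thinning to 6000 UMIs, in 5 germ cell classes and in Leydig cell-like barcodes (grey); bars are means of 6 libraries and lines their range. In spermatocyte-like barcodes Adam24, Adam6a, Adam6b and Adam1a lie at the grey bar or below its upper range, whereas Adam2 reaches 71.3%.

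Single clusters resolved these courses further, with the limit that clusters differ in depth. At a finer clustering (resolution 2) the spermatocyte-like class held a cluster led by Rad51ap2, a meiotic recombination gene, with a median of 10430 UMIs, and one led by Piwil1, a piRNA pathway gene, with a median of 53380 UMIs. Adam2 had 113 CPM in the first and 400 CPM in the second. Adam5 had 105 and 500 CPM, Adam32 had 54.5 and 262 CPM, Adam1b had 14.0 and 77.6 CPM, and Adam18 had 8.67 and 61.0 CPM. Adam3 had 81.0 and 168 CPM. Of these 6 genes, Adam2 alone was more than 2 times the Leydig cell-like level in the Rad51ap2 cluster, where that level (24.95 CPM) came from barcodes with at least 6000 UMIs. The cluster included shallower barcodes. Over all retained barcodes Adam2 was 50.6 CPM in Leydig cell-like, 95.5 CPM in mesenchymal-like and 105 CPM in Sertoli cell-like barcodes. Its 113 CPM was therefore not read as expression. Adam24 had 7.50 and 2.23 CPM, and Adam1a had 3.797 and 1.49 CPM.

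Levels also differed between round spermatid-like clusters. In cluster 4, led by Cd27, Adam2 had 446 CPM, Adam1b 158 CPM and Adam18 175 CPM, the highest levels of these genes in any germ cell cluster shown in the heat map. In cluster 10, led by Cd46, a complement regulator of the acrosome, Adam6a had 174 CPM, Adam6b 78.4 CPM and Adam24 128 CPM, the highest for these 3 among the clusters shown. Unnamed clusters other than the Hemgn cluster are not shown, among them one led by Prss58 with Adam6b among its 10 leading genes. In cluster 18, led by 1700121L03Rik, Adam3 had its highest level of 520 CPM while Adam2 had 118 CPM. Median depth was 3046 and 3817 UMIs in clusters 4 and 10 and 33580 UMIs in cluster 18, and its part in these differences was not tested. In the 2 elongating spermatid-like clusters, Adam5 had 445 CPM in that led by Cstl1 and 222 CPM in that led by Klk1b8. The latter lay below the 260 CPM of Sertoli cell-like barcodes with at least 6000 UMIs. Adam32 had 103 and 51.1 CPM, whereas Adam3 (425 and 412 CPM) and Adam1a (23.8 and 24.02 CPM) were level.

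**Figure D4:**
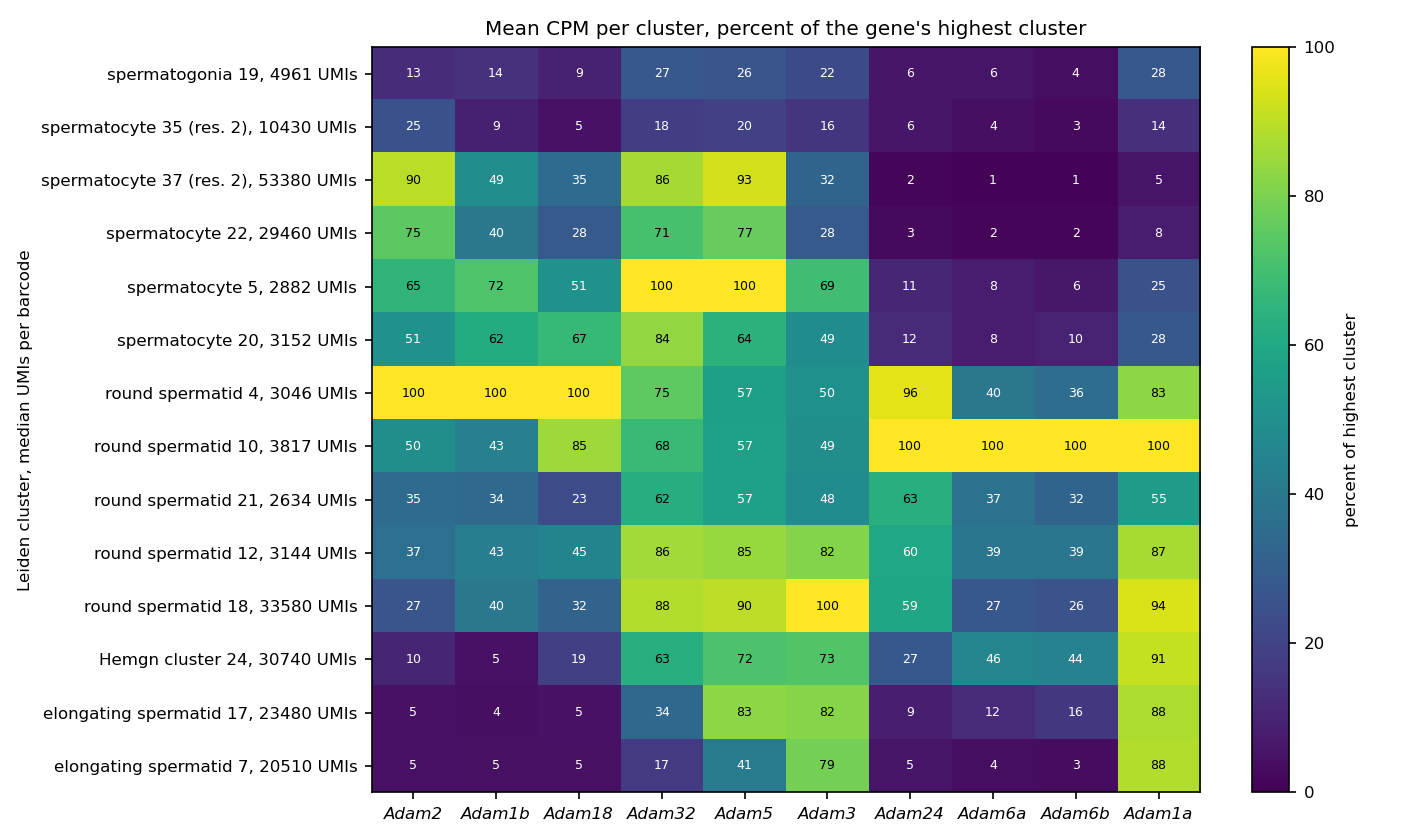
Mean level over 6 libraries in 14 germ cell clusters (rows, with median UMIs per barcode; 2 rows come from resolution 2), as percent of each gene's highest row. Colour runs from 0 to 100%. The highest row is spermatocyte-like cluster 5 for Adam32 and Adam5, and round spermatid-like cluster 4 for Adam2, Adam1b and Adam18. It is round spermatid-like cluster 10 for Adam24, Adam6a, Adam6b and Adam1a, and cluster 18 for Adam3. Only Adam5, Adam3 and Adam1a stay above 80% in elongating spermatid-like cluster 17.

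The genes most like each member over the 27 clusters were taken from 7687 genes whose mean level reached 10 CPM. For Adam2 the first was Clgn (r = 0.97), which encodes calmegin, the endoplasmic reticulum chaperone needed to assemble fertilin, followed by Slco6c1 and Art3. Slco6c1 and Art3 also led for Adam1b (r = 0.96 each). For Adam24 they were Tmem210, Pdilt and Tmc7 (r = 0.96 each), where PDILT is a testis disulfide isomerase-like chaperone of ADAM3. For Adam6a and Adam6b they were the other copy, then Adam4, another germ cell ADAM gene, and Gm4787 (r of 0.96 to 0.97). For Adam18 they were Insl6, Slc22a16 and the acrosin-binding gene Acrbp (r of 0.93 to 0.95). For Adam32 they were Cmtm2b, Nectin3 and Ldhc (r of 0.94 to 0.96), for Adam5 Pebp4, Spag17 and Cd55b (r of 0.91 to 0.94), for Adam3 Cd55b, Bag5 and Papolb (r of 0.90 to 0.91), and for Adam1a Cylc2, Spag4 and Pttg1ip (r = 0.94 each). These r values have no p.

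Genes from a fixed list related to ADAM maturation had courses of both kinds. Clgn was 590 ± 22.2 CPM in spermatocyte-like, 533 CPM in round spermatid-like and 39.9 CPM in elongating spermatid-like barcodes. Pdilt was 19.7 CPM in spermatocyte-like and 424 CPM in round spermatid-like barcodes, and Calr3, the testis calreticulin, was 25.1, 175 and 380 CPM in spermatocyte-like, round spermatid-like and Hemgn cluster barcodes. Ace, the angiotensin-converting enzyme that acts on TEX101, was 53.5 CPM in spermatocyte-like, 324 CPM in round spermatid-like and 327 CPM in elongating spermatid-like barcodes, and Pmis2, a sperm membrane gene, was 67.0, 420 and 367 CPM. Tex101 was 667 CPM in spermatocyte-like and 17.9 CPM in round spermatid-like barcodes. Pcsk4, a germ cell proprotein convertase, was 55.2 and 110 CPM in these 2 classes.

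Other germ cell ADAM genes were mostly late. Of 11 listed, 10 had values here, and of these Adam30 had 60.2 CPM in spermatocyte-like and 64.9 CPM in round spermatid-like barcodes. The other 9 (Adam4, Adam20, Adam21, Adam25, Adam26a, Adam26b, Adam29, Adam34 and Adam39) had between 2.55 (Adam34) and 7.68 CPM (Adam20) in spermatocyte-like barcodes and between 30.3 (Adam21) and 97.5 CPM (Adam29) in round spermatid-like barcodes. Among 13 widely expressed ADAM genes the courses varied. Adam10, a sheddase, had 40.8 CPM in spermatogonia-like, 2.44 CPM in spermatocyte-like and 0.372 CPM in round spermatid-like barcodes, and Adam17, another sheddase, had 26.4, 9.43 and 1.05 CPM. Adam15 had 46.04, 1.14 and 11.8 CPM and Adam22 had 5.17, 2.13 and 5.43 CPM in the same order, each with more in round spermatid-like than in spermatocyte-like barcodes.

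No member passed the adjusted threshold between smoking and control libraries in any germ cell class or in the sum of all retained barcodes. UMIs were summed per class and library and tested with edgeR's quasi-likelihood test with Benjamini-Hochberg adjustment over all genes of a class. Members called numbered 0 of the 7 tested in spermatogonia-like barcodes, where 0% of 9878 genes were called, 0 of 10 in spermatocyte-like (0% of 11898) and 0 of 10 in round spermatid-like barcodes (0% of 13881). They numbered 0 of 10 in the Hemgn cluster (0% of 8492), 0 of 10 in elongating spermatid-like barcodes (0.0390% of 10255) and 0 of 10 over all barcodes (0% of 18970). Adam1a, Adam6b and Adam24 did not pass the filter on low counts in spermatogonia-like barcodes. Members with an unadjusted p under 0.05 numbered 2 in spermatogonia-like (5.49% of all genes), 3 in spermatocyte-like (12.5%), 3 in round spermatid-like (18.2%), 1 in Hemgn cluster (4.11%), 0 in elongating spermatid-like (10.1%) and 1 in all barcodes (13.8%). The smallest adjusted p of the 57 tests was 0.222. DESeq2 and limma-voom called no member either, while DESeq2 called 124 genes in round spermatid-like, 15 in elongating spermatid-like and 333 over all barcodes.

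The interval of each difference gives a range for its size that covers the spread between libraries only, not that between mice. In spermatocyte-like barcodes, its highest class, Adam2 was 297 ± 24.1 CPM in controls and 320 ± 11.4 CPM in smoking libraries (SD, n = 3). The log2 fold was 0.11 with an interval of 2 SE from -0.04 to 0.27. Adam1b was 84.6 ± 7.80 and 84.7 ± 9.73 CPM (log2 fold 0.01, interval -0.22 to 0.24). Adam24 in round spermatid-like barcodes was 90.6 ± 10.8 and 84.0 ± 2.14 CPM (log2 fold -0.05, interval -0.24 to 0.15). Adam3 in elongating spermatid-like barcodes was 415 ± 21.9 and 416 ± 15.9 CPM (log2 fold 0.10, interval -0.04 to 0.25), where scaling by TMM moves the fold from that of the CPM means. Adam1a there was 25.04 ± 2.47 and 22.7 ± 3.72 CPM (log2 fold -0.04, interval -0.32 to 0.23).

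**Figure D5:**
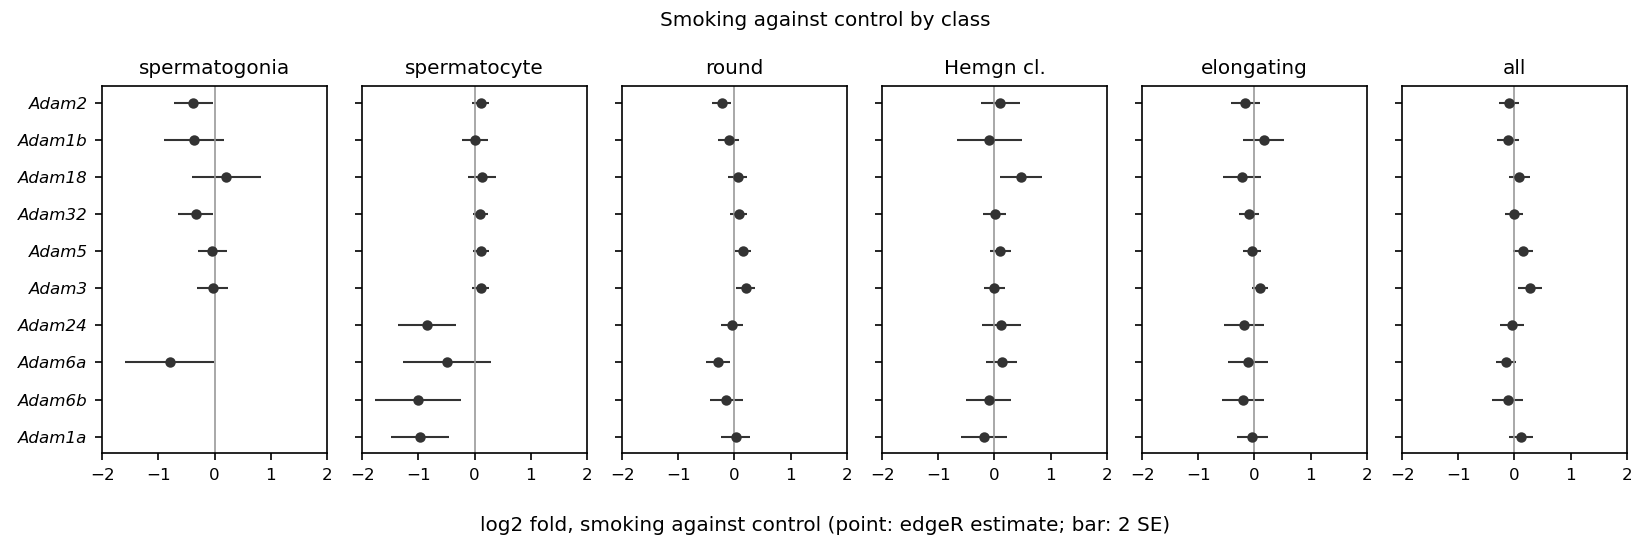
Log2 fold of smoking against control for each gene (rows) in 5 germ cell classes and in all retained barcodes, with 0 as a grey line; points are edgeR estimates and bars 2 SE. No estimate passed the adjusted threshold, and the 4 estimates farthest left in the spermatocyte-like panel belong to genes at background there. Adam1a, Adam6b and Adam24 were not tested in spermatogonia-like barcodes.

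In round spermatid-like barcodes, groups did not overlap for 3 of 10 members, where 22.9% of all genes did not, and 2 of these members were lower (15.3% of genes). Adam2 had 209.8, 222.8 and 178.5 CPM in controls and 166.7, 172.8 and 160.1 CPM in smoking libraries, so every smoking library was lower, with control 3 nearest to them. The log2 fold was -0.23 ± 0.09 (SE; edgeR adjusted p = 0.225). With at least 6000 UMIs the libraries overlapped and the fold was -0.10, and within cluster 4, the largest cluster of the class, it was 0.13. Adam6a had 79.3, 80.0 and 70.2 CPM in controls and 67.7, 59.2 and 52.6 CPM in smoking ones. Its log2 fold was -0.30 ± 0.11 (edgeR adjusted p = 0.222), and the fold within cluster 4 was -0.31. Adam5 had 406.1, 399.3 and 428.9 against 429.3, 436.6 and 449.8 CPM, the third control and the first smoking library lying side by side. Adam3 had a log2 fold of 0.20 ± 0.09 (edgeR adjusted p = 0.255), which was -0.12 within cluster 4. Barcodes with at least 6000 UMIs were 611 of 3708 round spermatid-like barcodes in controls and 1023 of 3505 in smoking libraries, and the part of this depth difference in the folds was not tested.

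In spermatocyte-like barcodes, groups did not overlap for 4 of 10 members, where 15.0% of all genes did not. Adam3 was higher in smoking libraries, and Adam1a, Adam24 and Adam6b were lower (7.95% of genes were so). For Adam3 the nearest libraries were control 2 (236.5 CPM) and smoking 2 (237.5 CPM), and with at least 6000 UMIs its groups overlapped. Adam24 had 11.9, 13.5 and 7.56 CPM in controls and 7.02, 5.73 and 5.21 CPM in smoking libraries, from 33 to 52 UMIs per library. The log2 fold was -0.85 ± 0.26 (edgeR adjusted p = 0.367). For Adam1a the fold was -0.97 ± 0.26 (edgeR adjusted p = 0.367), and for Adam6b -1.001 ± 0.38 (edgeR adjusted p = 0.370). These 3 genes were at background in this class, and with at least 6000 UMIs the fold of Adam24 was 0.01. Beside them, the summed level of the 14 round spermatid markers in spermatocyte-like barcodes was 865 to 1159 CPM in controls and 809 to 877 CPM in smoking libraries, with 4 of 14 markers lower without overlap and none at 0. Without control 3, Adam24 was called (log2 fold -1.09, edgeR adjusted p = 0.0109), together with 9.09% of all genes, and it was also called when genes of low count were kept (3.13% of all genes). The part of round spermatid RNA in these values was not tested.

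In spermatogonia-like barcodes, groups did not overlap for 3 of the 7 members tested, where 11.1% of all genes did not, and all 3 (Adam2, Adam6a and Adam32) were lower in smoking libraries (6.79% of genes were so). Beside them, the summed level of the 14 round spermatid markers in spermatogonia-like barcodes was 718 to 830 CPM in controls and 548 to 720 CPM in smoking libraries, with 5 of 14 markers lower without overlap, and the part of round spermatid RNA in these values was not tested. No member was without overlap in the Hemgn cluster, where 9.06% of genes were. In elongating spermatid-like barcodes 1 of 10 was, where 19.0% of genes were, and over all retained barcodes 3 of 10 were (Adam1b, Adam6a and Adam32, each lower in smoking libraries), where 28.3% of genes were (25.2% lower). This holds for CPM without TMM scaling: Adam32 was 218 CPM in controls and 189 CPM in smoking libraries, while its TMM-scaled log2 fold was -0.01, and those of Adam1b and Adam6a were -0.12 and -0.15. In bulk sums such as these last ones, fewer cells of a type and less RNA per cell cannot be told apart, and elongating spermatid-like barcodes, in which these 3 genes are low, were 3.65% ± 2.87 of control and 9.10% ± 3.66 of smoking barcodes (SD, n = 3).

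Whether the effect of smoking changed from 1 class to the next was asked with limma, using differences between classes inside each library, and 0 members were called in any of the 4 steps (0.00944% of genes in the last step and 0% in the others). From spermatocyte-like to round spermatid-like barcodes, where 0% of 14799 genes were called, the smallest adjusted p values belonged to Adam1a (0.99 ± 0.28 on the log2 scale, limma adjusted p = 0.184), Adam24 (0.77 ± 0.23, limma adjusted p = 0.185) and Adam2 (-0.35 ± 0.12, limma adjusted p = 0.214). Adam6b followed with 0.85 ± 0.33 (limma adjusted p = 0.267). Adam1a, Adam24 and Adam6b were at background in spermatocyte-like barcodes. Their edgeR log2 folds were -0.97, -0.85 and -1.001 there, against 0.02, -0.05 and -0.14 in round spermatid-like barcodes. Without control 3, Adam1a, Adam24 and Adam2 were called, with values of 1.12, 0.95 and -0.51 (limma adjusted p of 0.0204, 0.00723 and 0.000884). So were 1867 of all genes, or 12.4%.

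The related gene lists gave the same outcome in the edgeR tests. Of 15 ADAM maturation factors, 8 sperm-egg fusion genes, 11 other germ cell ADAM genes and 13 widely expressed ADAM genes, 0 were called among those tested in any germ cell class or over all barcodes. In spermatocyte-like barcodes 6 of the 15 maturation factors had an unadjusted p under 0.05, where 12.5% of all genes had. In round spermatid-like barcodes 6 of the 14 tested had an unadjusted p under 0.05, where 18.2% of all genes had, and their median log2 fold was -0.10 beside -0.03 over all genes tested. In spermatocyte-like barcodes the other germ cell ADAM genes had a median of -0.51, with 1 of 10 above 0, beside -0.01 over all genes, of which 5675 of 11898 were above 0. The 7 fusion genes tested there had a median of -0.54, and 0 of the 7 were above 0. Round spermatid markers were lower without overlap in this class too (4 of 14, where 7.95% of all genes were). With at least 6000 UMIs 6 of 14 were lower and 1 was higher without overlap. The marker sums overlapped there, at 576 to 673 CPM in controls and 587 to 606 CPM in smoking libraries. The part of round spermatid RNA in these medians was not tested.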

How the data were processed

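Raw UMI counts per gene and barcode, as deposited by the authors for 3 control and 3 smoking libraries, were used, with barcodes already called as cells. Per the file headers the matrices were written by Cell Ranger 3.1.0, while mm10, CASAVA 1.8 and Cell Ranger 7.1.0 stand in the submitters' processing notes. Whether counting used strand is not given here. Barcodes over 20% mitochondrial UMIs (2459) and called doublets (3935, simulated pairs, 0.8% per 1000 barcodes) were removed. Clusters came from Leiden (leidenalg 0.10.2, resolution 1) on 30 components of 2000 variable genes, without the members, the related lists, mitochondrial and ribosomal genes. A cluster was named when at least 3 fixed markers and 25% of a list had a log2 fold of at least 1 and were seen in 20% of its barcodes. The 25% limit was set after seeing the data and left unnamed a cluster led by Rfx8 (4.39% ± 2.18 of control and 14.6% ± 7.75 of smoking barcodes) and one led by Zfp820 (2.63% ± 0.182 and 1.59% ± 0.230), each with some spermatocyte markers.

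Sums of counts by class and library were tested with edgeR 4.0.16 (TMM, filterByExpr, quasi-likelihood, Benjamini-Hochberg adjusted p under 0.05); differences of effects between classes used limma 3.58.1. Both were tested on simulated data. Stage differences use log2(CPM + 5). Intervals of Leydig cell-like levels are exact 95% Poisson intervals and cover counting error only. Thinning and the comparison with all somatic classes were added after seeing the data. The members, the lists and the tests were chosen with earlier results of these data known. The text names all members, listed genes past the threshold (none), Clgn, Calr3, Pdilt, Ace, Tex101, Pmis2, Pcsk4, Adam10 and Adam17, and the 3 genes most like each member; cluster-leading genes, the other germ cell ADAM genes, Adam15 and Adam22 were named after their values were seen. Sequences and positions come from GENCODE M21 on GRCm38. Alternatives were DESeq2 1.42.0, limma-voom, RLE size factors, no filter, each library left out, resolution 2, doublets kept, barcodes with at least 6000 UMIs, the largest cluster of a class and other pseudocounts or prior counts.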

Additional observations from a re-analysis of the deposited data

How the results depend on the processing

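No paired analysis was possible because the labels give no replicate numbers that tie control to smoking libraries. Of 751 log2 folds of members under the alternatives, 749 kept their side of the threshold; the other 2 were Adam24 in spermatocyte-like barcodes without the filter on low counts (log2 fold -0.82, edgeR adjusted p = 0.0226) and without control 3. Members called in that class were 1 without the filter and 0 to 1 with a library left out. For the difference of effects between round spermatid-like and spermatocyte-like barcodes they were 0 to 3 with a library left out.

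Counts over all genes moved more. Without the filter, genes called were 39 in spermatogonia-like, 675 in spermatocyte-like, 653 in round spermatid-like, 39 in Hemgn cluster, 131 in elongating spermatid-like and 1 over all barcodes. DESeq2 called 5, 124, 15 and 333 in spermatocyte-like, round spermatid-like, elongating spermatid-like and all barcodes. With at least 6000 UMIs 1 gene was called in spermatogonia-like and 1 in round spermatid-like barcodes, with doublets kept 7 in spermatogonia-like, in the largest cluster 2 in round spermatid-like, and at resolution 2 none (0) in elongating spermatid-like barcodes. With a library left out the counts were 0 to 18 in spermatogonia-like, 0 to 1114 in spermatocyte-like, 1 to 18 in round spermatid-like, 0 to 5 in Hemgn cluster, 4 to 17 in elongating spermatid-like and 0 to 6 in all barcodes; the highest in spermatocyte-like and round spermatid-like barcodes were without control 3. Differences of effects gave 0 to 303 (spermatocyte-like minus spermatogonia-like), 0 to 1867 (round spermatid-like minus spermatocyte-like), 0 to 48 (Hemgn cluster minus round spermatid-like) and 0 to 2 (elongating spermatid-like minus Hemgn cluster), with 2 in the last at a prior count of 5. The cause was not tested.

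Of the 40 stage differences of members, all 40 stayed within their spread (SD over the 6 libraries) with doublets kept. With a pseudocount of 1 CPM 32 did, at resolution 2 31 did, and with at least 6000 UMIs 20 did. All 40 also did with any library left out. Leaving out 1 of 6 libraries cannot move a mean by as much as that SD, so this last count carries no information.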
